A study of Homo sapiens with 9 samples.

Results

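The Polycomb repressive complex 1 (PRC1) genes described here are PHC1, PHC2, PHC3, RING1, RNF2, BMI1, CBX2, CBX8 and PCGF6, and every probe of the bead array whose platform gene symbol is one of these 9 names was taken. That gave 14 of 47310 probes, for 7 of the 9 genes: 3 probes each for PHC2, CBX2 and PCGF6, 2 for PHC3, and 1 each for PHC1, RING1 and BMI1. RNF2 and CBX8 were not analysed here, because no probe carried their symbol in the gene table used. The cells were HEK293T, a line derived from human embryonic kidney and carrying the SV40 large T antigen, transfected with the pRK5 vector encoding LAV-BPIFB4 (the longevity-associated variant of BPIFB4, a protein of the BPI fold family), with pRK5 encoding WT-BPIFB4 (the wild-type form), or with an empty plasmid, with 3 arrays in each of the 3 groups. All groups shared the same lipid transfection and, starting 24 hours later, 18 hours without serum. The RNA is from transiently transfected cultures and no label gives the share of cells that took up the plasmid, so fewer cells with a transcript and less of it per cell cannot be told apart.

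PRC1 is a repressive chromatin complex. Its catalytic core pairs a RING finger protein, RING1 or RNF2, with 1 PCGF protein, and places a single ubiquitin on histone H2A. In the canonical form the PCGF partner is BMI1 or its paralog, a CBX chromodomain protein binds histone H3 methylated by Polycomb repressive complex 2 (PRC2), and a PHC protein links complexes to each other through its SAM domain. Variant forms lack the CBX proteins of the Polycomb type and the PHC proteins, and that built on PCGF6 also holds the DNA-binding proteins MGA and E2F6. HOX genes and the CDKN2A locus are classical targets, and the repression of CDKN2A by BMI1 is known from mouse and human fibroblasts.

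The members were chosen by complex membership with the differences between these groups in view, above all the low PHC1 signal with both forms of BPIFB4. Their differences from the empty vector are therefore a description, without a test, and counts of calls among them support nothing. Signals were background-corrected and quantile-normalised, and are given as log2 intensity. A probe was kept where its detection p-value was under 0.05 on at least 3 arrays, and called where the limma adjusted p over all 20914 kept probes was under 0.05. Levels of different probes are not set against each other, because each probe has its own brightness.

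The arrays had median signals of 93.1 to 139, and 18940 to 20658 probes were detected on each. Along the first principal component the LAV-BPIFB4 arrays lay between 19.7 and 25.2 and the empty vector arrays between -32.1 and -29.8. The WT-BPIFB4 arrays were spread out, with replicate 1 at -12.3, replicate 2 at 9.67 and replicate 3 at 29.3, so WT-BPIFB4 replicate 1 lay nearest to the empty vector. Of 9 HEK293 markers 6 were detected on all 9 arrays, whereas PAX2 was detected on none and LHX1 on at most 1. None of the 5 endothelial markers and neither PTPRC nor CD3E, of the blood markers, was detected on any array, while CD14 and the fibroblast marker COL1A1 were detected on all 9. The groups sit in separate positions of 1 chip, so position and group cannot be told apart.

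Promoter windows of PHC1, BMI1 and RING1 are shown because the BMI1 and PHC1 probes were lower, and the RING1 probe higher, on every LAV-BPIFB4 array than on any empty vector array. They come from RefSeq (GRCh38.p14), cover 250 bases before and 50 after an annotated start, and were available for 7 of the 9 genes, in 10 windows. Capitals mark the GC box GGGCGG and the E-box CACGTG, on either strand.
PHC1, first annotated start, chr12:8913593-8913892, plus strand: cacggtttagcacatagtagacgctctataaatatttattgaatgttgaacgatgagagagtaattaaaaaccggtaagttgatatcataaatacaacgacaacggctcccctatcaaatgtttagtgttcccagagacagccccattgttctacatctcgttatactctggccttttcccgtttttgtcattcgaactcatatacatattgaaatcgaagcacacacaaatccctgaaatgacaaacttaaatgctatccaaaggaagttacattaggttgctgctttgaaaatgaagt
PHC1, second annotated start, chr12:8914259-8914558, plus strand: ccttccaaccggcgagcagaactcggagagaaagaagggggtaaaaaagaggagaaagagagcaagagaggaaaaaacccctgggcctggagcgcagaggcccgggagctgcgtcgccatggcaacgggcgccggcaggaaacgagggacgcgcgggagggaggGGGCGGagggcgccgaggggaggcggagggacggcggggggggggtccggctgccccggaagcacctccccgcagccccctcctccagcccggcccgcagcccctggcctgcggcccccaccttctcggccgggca
BMI1, first of 2 annotated starts, chr10:22320849-22321148, plus strand: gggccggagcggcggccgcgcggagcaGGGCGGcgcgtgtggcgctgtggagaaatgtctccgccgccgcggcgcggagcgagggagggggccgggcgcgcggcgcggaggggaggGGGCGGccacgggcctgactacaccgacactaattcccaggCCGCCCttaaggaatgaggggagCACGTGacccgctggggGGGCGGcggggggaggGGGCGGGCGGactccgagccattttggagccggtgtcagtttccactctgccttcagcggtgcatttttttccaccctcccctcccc
RING1, chr6:33208250-33208549, plus strand: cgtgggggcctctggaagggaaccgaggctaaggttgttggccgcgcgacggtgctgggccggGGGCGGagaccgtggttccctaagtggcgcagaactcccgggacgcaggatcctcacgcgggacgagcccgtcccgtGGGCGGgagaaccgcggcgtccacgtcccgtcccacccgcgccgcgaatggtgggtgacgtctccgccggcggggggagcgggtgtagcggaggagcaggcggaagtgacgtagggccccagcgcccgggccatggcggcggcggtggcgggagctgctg
The PHC1 windows differ in composition, with 37.0% G and C at the first start and 72.3% at the second, against a median of 58.7% over all 35116 promoter windows. The first PHC1 window holds none of the motifs searched and the second holds 1 GC box, a motif present in 45.0% of all windows. The BMI1 window has 6 GC boxes, of which 2 overlap, and 1 E-box, which 7.26% of all windows hold. The window at the second BMI1 start, not printed, is 91.0% G and C and holds 5 GC boxes and no E-box. The RING1 window has 2 GC boxes. The heat shock element, GAA, TTC and GAA in a row with any 2 bases between units (0.490% of all windows), the CCAAT box (34.6%) and the E2F motif TTTCGCGC (0.515%) were found on neither strand in any of these 4 windows. Such matches describe the letters of the windows only.

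PHC1, a polyhomeotic subunit, was the member that differed most from the empty vector (probe ILMN_1796710). Its log2 intensity was 5.18, 5.49 and 5.45 on the LAV-BPIFB4 arrays, 4.98, 6.15 and 6.14 on the WT-BPIFB4 arrays, and 6.88, 7.65 and 6.73 on the empty vector arrays. All 6 BPIFB4 arrays lay below all 3 empty vector arrays, while the LAV-BPIFB4 and WT-BPIFB4 arrays overlapped. The group means were 5.37 ± 0.17 with LAV-BPIFB4, 5.76 ± 0.67 with WT-BPIFB4 and 7.09 ± 0.49 with the empty vector (SD, n = 3 each). This corresponds to a log2 difference from the empty vector of -1.72 ± 0.31 (SE of the fit) for LAV-BPIFB4 and -1.33 ± 0.31 for WT-BPIFB4.

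The PHC1 signal was near the array background. It was detected on 2 of 3 LAV-BPIFB4 arrays, on 2 of 3 WT-BPIFB4 arrays and on all 3 empty vector arrays, with non-normalized signals of 123, 142 and 159 with LAV-BPIFB4, 102, 191 and 142 with WT-BPIFB4, and 242, 287 and 139 with the empty vector. Before normalization the groups overlapped, since empty vector replicate 3, the array with the lowest median signal, had 139. Without background correction the difference was -0.73 for LAV-BPIFB4 and -0.59 for WT-BPIFB4. Over the 18 alternatives that kept the probe it lay between -1.92 and -0.62 for LAV-BPIFB4 and between -1.54 and -0.59 for WT-BPIFB4. PHC1 was called in all 18 for LAV-BPIFB4 but in 7 of 18 for WT-BPIFB4. The WT-BPIFB4 call was lost without any one of 8 of the 9 arrays, WT-BPIFB4 replicate 2 being the exception, and leaving out each array in turn gave differences between -1.54 and -0.95. The value nearest to 0, -0.95, was that without WT-BPIFB4 replicate 1, the array at 4.98. A pseudogene, PHC1P1, is annotated, and whether the probe also binds its transcript is not known.

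PHC2 and PHC3, the paralogs of PHC1, did not show this pattern. The PHC2 probe that was kept (ILMN_1808047) read 8.17, 8.19 and 8.28 with LAV-BPIFB4, 7.95, 8.22 and 8.29 with WT-BPIFB4, and 8.07, 8.23 and 7.92 with the empty vector, so all groups overlapped. Its log2 differences from the empty vector were 0.14 ± 0.16 for LAV-BPIFB4 and 0.08 ± 0.16 for WT-BPIFB4. The other PHC2 probes were not kept: ILMN_1670147 was detected on 1 LAV-BPIFB4, 1 WT-BPIFB4 and 0 empty vector arrays, and ILMN_1673461 on none. The brighter PHC3 probe (ILMN_2179873) read 7.20, 6.70 and 7.0 with LAV-BPIFB4, 7.68, 7.01 and 6.78 with WT-BPIFB4, and 6.93, 6.78 and 6.64 with the empty vector. The other PHC3 probe (ILMN_1792353) read 5.99, 6.53 and 6.40 with LAV-BPIFB4, 7.04, 6.48 and 6.09 with WT-BPIFB4, and 6.14, 6.40 and 5.97 with the empty vector. On both PHC3 probes WT-BPIFB4 replicate 1 was the highest of the 9 arrays, and it was the lowest of the 9 for PHC1. The PHC3 differences from the empty vector were 0.18 ± 0.24 and 0.14 ± 0.26 for LAV-BPIFB4, and 0.38 ± 0.24 and 0.37 ± 0.26 for WT-BPIFB4, all with overlapping groups. Without WT-BPIFB4 replicate 1 the WT-BPIFB4 differences were 0.12 and 0.11, and without WT-BPIFB4 replicate 3 they were 0.57 and 0.59. The difference between PHC1 and its paralogs was itself not tested.

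BMI1, the PCGF subunit of canonical PRC1, was also lower with both forms of BPIFB4, by less than PHC1 and on a far brighter probe (ILMN_1700915). It read 10.74, 10.80 and 10.86 with LAV-BPIFB4, 11.08, 10.79 and 10.65 with WT-BPIFB4, and 11.28, 11.27 and 11.21 with the empty vector. All 6 BPIFB4 arrays were below the 3 empty vector arrays, which had an SD of 0.03. The log2 difference was -0.45 ± 0.12 for LAV-BPIFB4, 1.37-fold lower and called, and -0.41 ± 0.12 for WT-BPIFB4, which was not called. The LAV-BPIFB4 difference ranged from -0.48 to -0.20 over 19 alternatives and was called in 10 of them. Leaving out replicate 1 or 3 of the empty vector, or any single LAV-BPIFB4 array, ended the call, although leaving out each array in turn gave differences of -0.48 to -0.41 throughout. It was also lost with median scaling, at -0.20, and with the value table, at -0.21. For WT-BPIFB4 the value table gave -0.22. The WT-BPIFB4 difference was called in 3 of 19 alternatives: array weights, the replicate number as a block, and without WT-BPIFB4 replicate 1.

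Transcripts of the neighbouring COMMD3 can read through into BMI1, according to the annotation, so COMMD3 was looked at after the BMI1 values were seen. The COMMD3 probe had means of 11.01 ± 0.04 with LAV-BPIFB4, 10.96 ± 0.16 with WT-BPIFB4 and 10.77 ± 0.17 with the empty vector (log2 intensity, SD, n = 3 each). Its log2 differences from the empty vector, 0.24 ± 0.12 and 0.19 ± 0.12, were opposite in sign to those of BMI1. Neither was called, and the LAV-BPIFB4 arrays lay above all empty vector arrays. A BMI1 pseudogene, BMI1P1, is annotated as well.

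RING1, one of the alternative catalytic subunits, lay on the other side of the empty vector. It read 11.17, 11.13 and 11.19 with LAV-BPIFB4, 10.82, 11.14 and 11.29 with WT-BPIFB4, and 10.72, 10.95 and 10.93 with the empty vector (probe ILMN_1666399). The LAV-BPIFB4 arrays were all above the empty vector arrays, whereas WT-BPIFB4 replicate 1 fell among them. The log2 differences were 0.30 ± 0.12 for LAV-BPIFB4 and 0.21 ± 0.12 for WT-BPIFB4, and neither was called. With median scaling the LAV-BPIFB4 difference was 0.52, and it was called in 1 of 19 alternatives, that with array weights. The WT-BPIFB4 difference was 0.11 without WT-BPIFB4 replicate 3 and 0.35 without WT-BPIFB4 replicate 1.

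CBX2, a chromodomain subunit, was well above background on 1 of its 3 probes (ILMN_1770678). That probe read 10.78, 10.91 and 10.71 with LAV-BPIFB4, 10.61, 10.77 and 10.83 with WT-BPIFB4, and 10.98, 11.09 and 10.86 with the empty vector. The WT-BPIFB4 arrays lay just below the empty vector arrays, the nearest values being 10.83 and 10.86, and the LAV-BPIFB4 arrays overlapped with them. The differences were -0.18 ± 0.12 for LAV-BPIFB4 and -0.24 ± 0.12 for WT-BPIFB4, with no call. The sign for LAV-BPIFB4 turned with median scaling, to 0.03, and with the value table, to 0.11. A dimmer CBX2 probe (ILMN_1709645), detected on 1 array of each group, differed by -0.09 ± 0.31 and -0.06 ± 0.31, and the third (ILMN_1686237), detected on 1 LAV-BPIFB4 and 1 empty vector array, was not kept.

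PCGF6, the PCGF protein of a variant complex, was measured by 3 probes. Their LAV-BPIFB4 differences from the empty vector were close to each other, and their WT-BPIFB4 differences lay further apart. The brightest (ILMN_1656574) read 10.34, 9.92 and 10.28 with LAV-BPIFB4, 10.51, 10.51 and 10.05 with WT-BPIFB4, and 10.52, 10.66 and 10.31 with the empty vector. The second (ILMN_2401701) read 8.51, 8.24 and 8.67 with LAV-BPIFB4, 8.69, 8.30 and 8.07 with WT-BPIFB4, and 9.06, 8.53 and 8.88 with the empty vector. The groups overlapped on both. For LAV-BPIFB4 the 3 probes differed from the empty vector by -0.32 ± 0.15, -0.35 ± 0.19 and, for the third (ILMN_1810181), -0.24 ± 0.19. For WT-BPIFB4 they differed by -0.14 ± 0.15, -0.47 ± 0.19 and -0.02 ± 0.19. No PCGF6 probe was called in the main fit. The second was called for WT-BPIFB4, as lower, in 2 of 19 alternatives, with array weights and without WT-BPIFB4 replicate 1. The sign for WT-BPIFB4 turned on the brightest probe without WT-BPIFB4 replicate 3, to 0.01, and on the third without empty vector replicate 2, to 0.20, or WT-BPIFB4 replicate 3, to 0.06. Without empty vector replicate 2 the LAV-BPIFB4 difference of the third probe was -0.02. With the value table the LAV-BPIFB4 differences were 0.0039, -0.07 and -0.07.

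**Figure D1:**
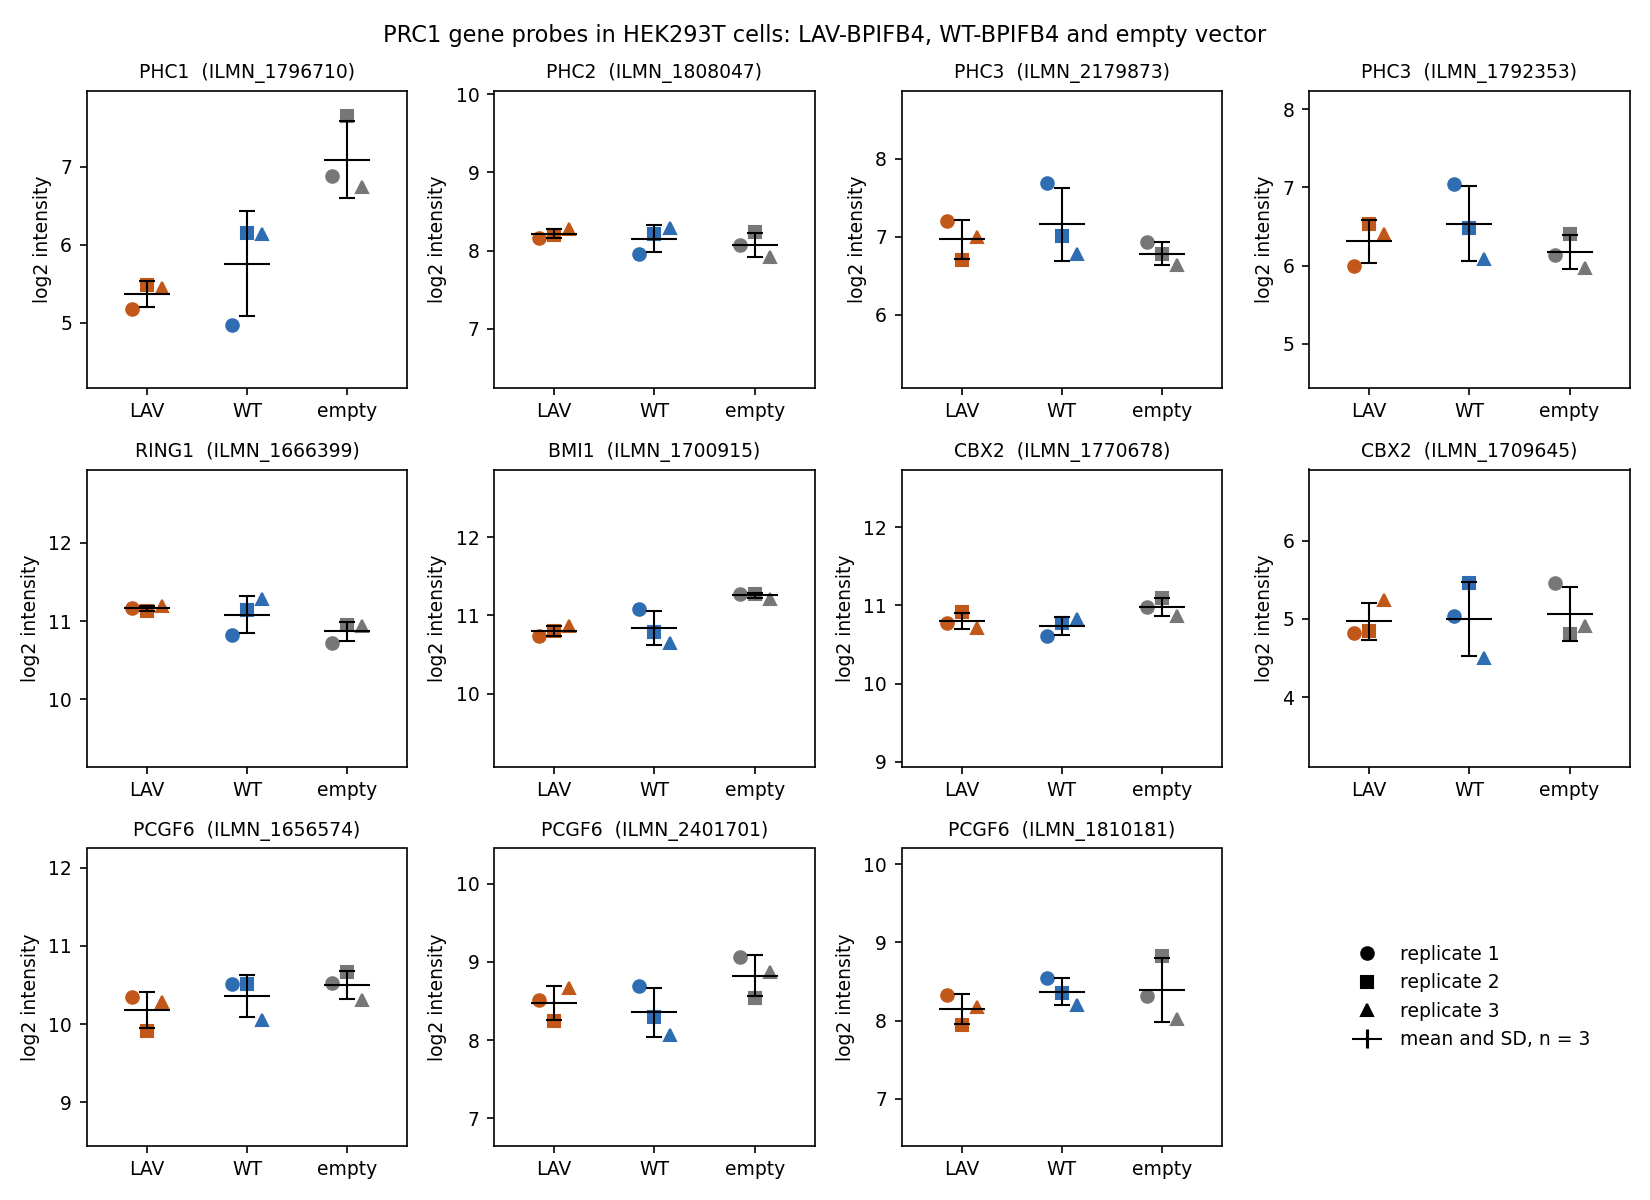
Log2 intensity of the 11 kept probes of PRC1 genes on each array (vertical axis, the same span of values in each panel) with LAV-BPIFB4, WT-BPIFB4 and the empty vector (horizontal axis). Points are arrays, with a symbol for each replicate number, and bars are the mean and SD of 3 arrays. PHC1 and BMI1 lie below the empty vector on all 6 BPIFB4 arrays, and WT-BPIFB4 replicate 1 is the lowest array for PHC1 and the highest for both PHC3 probes.

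Over the members, 2 of the 11 kept probes were called for LAV-BPIFB4 against the empty vector, PHC1 and BMI1, both lower, where 7.72% of all kept probes were called (3.64% higher and 4.08% lower). For WT-BPIFB4 against the empty vector 1 of 11 was called, PHC1, lower, where 1.07% of all kept probes were called (0.607% higher and 0.464% lower). The split of calls by direction depends on the scaling: for LAV-BPIFB4, 762 of all kept probes were called higher and 853 lower, but with median scaling 205 higher and 38 lower. Groups did not overlap for 2 probes lower and 1 higher with LAV-BPIFB4, beside 15.9% lower and 14.7% higher of all kept probes. With WT-BPIFB4 they did not overlap for 3 probes lower and 0 higher, beside 8.67% and 8.31%. The median difference of the 11 probes was -0.18 for LAV-BPIFB4 and -0.06 for WT-BPIFB4, beside 0.0082 and 0.0047 over all kept probes. Both comparisons use the same 3 empty vector arrays, and the 3 probes that were not kept were at or near background. A set of genes chosen for these contrasts gives no independent count, so nothing is read from these numbers.

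LAV-BPIFB4 and WT-BPIFB4 were not told apart by any member. None of the 11 probes was called between them and no probe had groups without overlap, beside 0% called and 10.1% without overlap over all kept probes. limma called 0 of the 20914 probes in this comparison. Its unadjusted p was under 0.05 for 976 of them, a share of less than 0.05, which is no more than arises without any difference. In other settings 4 were called with median scaling, 1 with array weights and 17 with the replicate number as a block. The difference of LAV-BPIFB4 from WT-BPIFB4 was -0.38 for PHC1, with a 95% interval of -1.03 to 0.26, which includes 0 and reaches a clearly lower level with LAV-BPIFB4. Without WT-BPIFB4 replicate 1 it was -0.78. The intervals were narrower for BMI1, -0.29 to 0.21 around -0.04, for RING1, -0.18 to 0.34 around 0.08, and for the bright CBX2 probe, -0.18 to 0.31 around 0.06. These intervals show the precision of the fit and not that the 2 forms act alike.

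**Figure D2:**
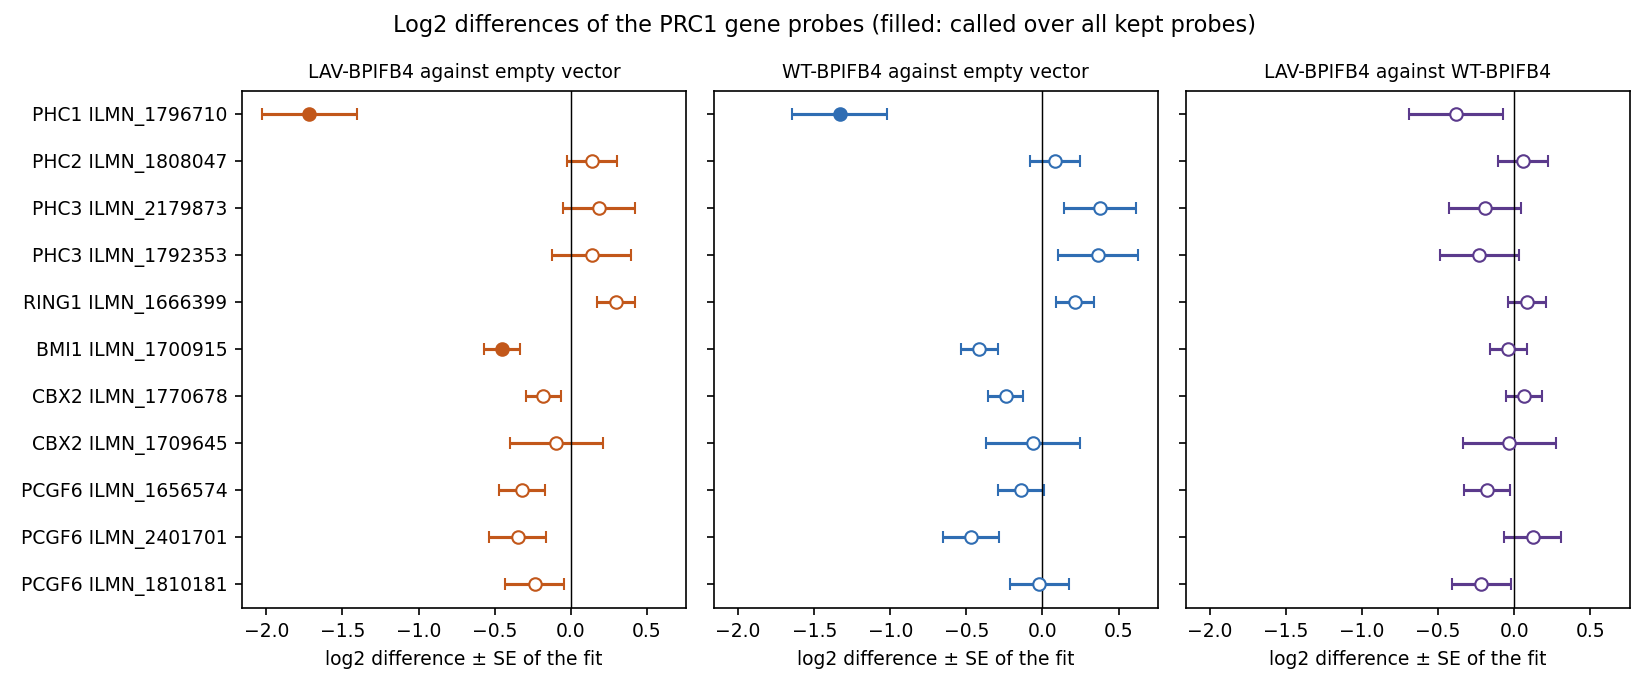
Log2 difference of each kept PRC1 gene probe (horizontal axis; bars, SE of the fit) for LAV-BPIFB4 against the empty vector, WT-BPIFB4 against the empty vector, and LAV-BPIFB4 against WT-BPIFB4. Filled points were called over all 20914 kept probes: PHC1 at -1.72 and BMI1 at -0.45 for LAV-BPIFB4, and PHC1 at -1.33 for WT-BPIFB4.

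The deposited value table offers a further reading of the LAV-BPIFB4 group. Its empty vector and WT-BPIFB4 columns are a rescaling of the same arrays, but its 3 LAV-BPIFB4 columns matched none of the 9 arrays (highest correlation with any array 0.994 across probes), so what was hybridised for them is known from the label alone. In these columns PHC1 had intensities of 171, 162 and 140 for LAV-BPIFB4, with 128, 170 and 171 for WT-BPIFB4 and 223, 300.1 and 209 for the empty vector. The LAV-BPIFB4 values were all below the empty vector values. BMI1 had 2007, 2156 and 2095 for LAV-BPIFB4, 2333, 2011 and 1898 for WT-BPIFB4, and 2348, 2365 and 2546 for the empty vector. The empty vector values were above those of both forms. RING1 had 2529, 2334 and 2437 for LAV-BPIFB4, 1985, 2564 and 2990 for WT-BPIFB4, and 1695, 1990 and 2151 for the empty vector, where the LAV-BPIFB4 values were above all empty vector values. PHC2 ranged from 413 to 476 for LAV-BPIFB4, from 359 to 423 for WT-BPIFB4 and from 353 to 398 for the empty vector. The brighter PHC3 probe ranged from 236 to 242 for LAV-BPIFB4 and from 201 to 227 for the empty vector. Both were thus higher with LAV-BPIFB4 without overlap in this table, unlike on the arrays. The bright CBX2 probe ranged from 2211 to 2256 for LAV-BPIFB4, from 1729 to 2142 for WT-BPIFB4 and from 1993 to 2165 for the empty vector, so here it was higher with LAV-BPIFB4. The empty vector columns come from the same 3 arrays as before, so these values are no independent comparison. The share of all probes without overlap in this table was not counted, so nothing is read from the lack of overlap. The normalization of this table is not given in the sources used here.

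**Figure D3:**
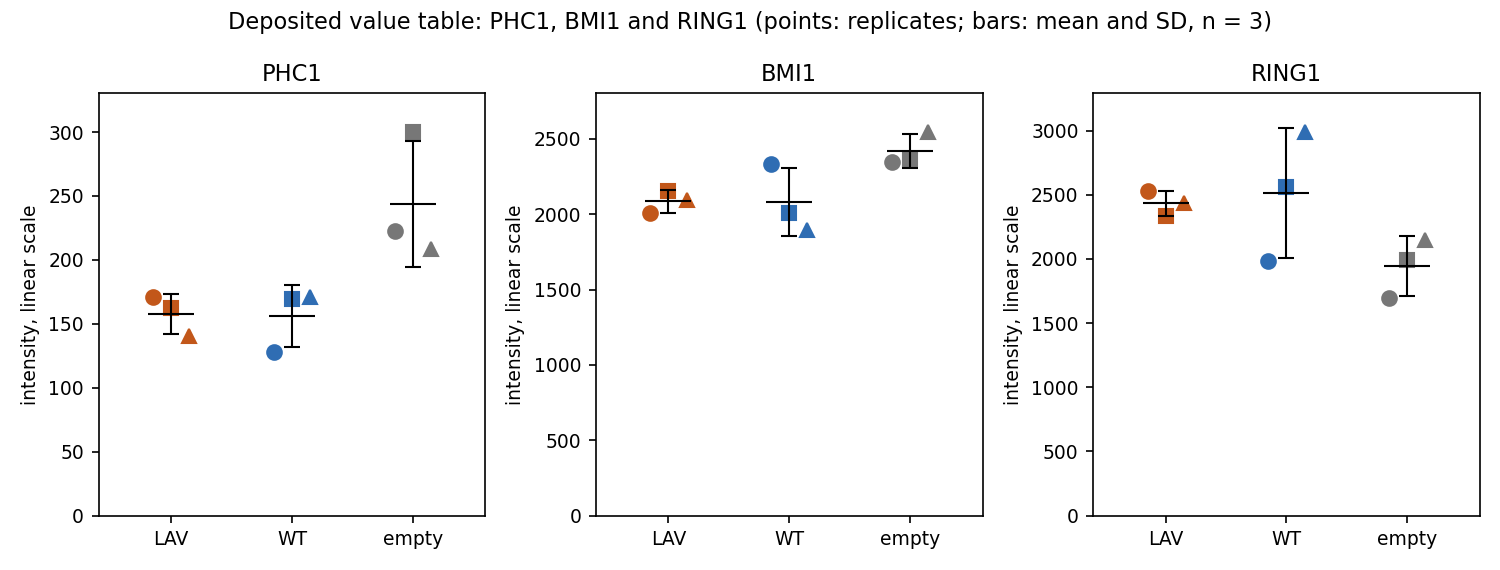
Intensity of PHC1, BMI1 and RING1 in the deposited value table (vertical axis, linear scale from 0) for LAV-BPIFB4, WT-BPIFB4 and the empty vector; points are samples, bars the mean and SD of 3. The LAV-BPIFB4 columns, which match none of the 9 arrays, lie below the empty vector for PHC1 and BMI1 and above it for RING1.

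The rest of the Polycomb machinery was followed through 5 lists drawn up by complex and role. Earlier results of these data were known when the lists were chosen, so their counts are a description and no list was tested. Of 80 measured genes 6 were called for LAV-BPIFB4 against the empty vector (2 higher and 4 lower, 7.5%), where 9.01% of all 11830 genes were called (3.98% higher and 5.03% lower). For WT-BPIFB4 against the empty vector 1 of 80 was called (1.25%), lower, where 1.30% of all genes were (0.803% higher and 0.499% lower). Both shares were near those of all genes. None was called between LAV-BPIFB4 and WT-BPIFB4, where 0% of all genes were.

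Among the other canonical PRC1 subunits, 0 of 6 measured genes were called in any comparison, with a median difference of -0.21 for LAV-BPIFB4 and -0.12 for WT-BPIFB4 against the empty vector, beside -0.0022 and 0.0059 over all genes. Among variant PRC1 subunits 1 of 24 was called higher and 2 lower with LAV-BPIFB4, and none was called with WT-BPIFB4 (medians -0.12 and -0.08). CBX3, a heterochromatin protein that is also part of the PCGF6 complex, read 10.47, 10.44 and 10.34 with LAV-BPIFB4, against 9.25, 9.48 and 9.66 with the empty vector, a rise of 0.95 ± 0.22 (limma adjusted p = 0.012, n = 3 each). A second kept CBX3 probe, at 0.62, missed the threshold. BCOR, the scaffold of the PCGF1 complex, read 10.87, 10.74 and 10.77 with LAV-BPIFB4, against 11.44, 11.23 and 11.51 with the empty vector (-0.60 ± 0.13, limma adjusted p = 0.0090). Its other kept probe was also called, at -0.62. The deacetylase gene HDAC2 read 12.04, 11.89 and 12.07 with LAV-BPIFB4, against 12.42, 12.37 and 12.48 with the empty vector (-0.43 ± 0.11, limma adjusted p = 0.019), and its other kept probe differed by -0.30 without a call. Leaving out each array in turn kept the differences at 0.85 to 1.05 for CBX3, -0.69 to -0.54 for BCOR and -0.46 to -0.37 for HDAC2, while some calls were lost. That of CBX3 was lost without empty vector replicate 1 (limma adjusted p = 0.055) or LAV-BPIFB4 replicate 1 (adjusted p = 0.062), and that of BCOR was lost without LAV-BPIFB4 replicate 3 (limma adjusted p = 0.050, just above the threshold). That of HDAC2 was lost on leaving out replicate 1 or 3 of the empty vector, or replicate 1, 2 or 3 of LAV-BPIFB4 (limma adjusted p = 0.052, 0.070, 0.062, 0.089 and 0.059). Without the intensity trend, which leaves the differences as they are, all 3 of these calls were lost. Those of BCOR and HDAC2 were also lost under median scaling, where the differences shrank to -0.35 and -0.10, and in the value table, where they were -0.17 and -0.15.

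PRC2, which lays down the histone methylation that CBX proteins bind, had 2 of 13 genes called with LAV-BPIFB4 and 1 of 13 with WT-BPIFB4, all lower (medians -0.09 and -0.08). RBBP7, a histone-binding subunit, read 11.48, 11.33 and 11.36 with LAV-BPIFB4, 11.96, 11.39 and 11.27 with WT-BPIFB4, and 12.19, 11.97 and 12.19 with the empty vector. It fell by 0.73 on the log2 scale with LAV-BPIFB4 (SE 0.14, limma adjusted p = 0.0043) and by 0.58 with WT-BPIFB4 (limma adjusted p = 0.048). AEBP2, a DNA-binding accessory subunit, read 8.45, 8.54 and 8.66 with LAV-BPIFB4, 9.30, 8.74 and 8.51 with WT-BPIFB4, and 9.31, 9.41 and 9.38 with the empty vector. It fell by 0.82 with LAV-BPIFB4 (limma adjusted p = 0.0073), and the WT-BPIFB4 difference of -0.52 was not called. For both genes WT-BPIFB4 replicate 1 was the array nearest to the empty vector. The RBBP7 call with WT-BPIFB4 was lost when replicate 1 or 3 of the empty vector, replicate 2 or 3 of WT-BPIFB4, or any single LAV-BPIFB4 array was left out (limma adjusted p of 0.070 to 0.341). The LAV-BPIFB4 calls of RBBP7 and AEBP2 held without any one array, with differences of -0.80 to -0.69 and of -0.87 to -0.77. Both calls were lost with median scaling, where the differences were -0.42 and -0.72 (limma adjusted p = 0.453 and 0.227), and in the value table, where they were -0.35 and -0.31 (adjusted p = 0.203 and 0.199). Without the intensity trend, which leaves the differences as they are, both calls were lost as well (limma adjusted p = 0.084 and 0.071).

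Of the H2A deubiquitinases and subunits of the complex that removes the PRC1 mark, 11 were measured and 0 were called in any comparison, with medians of -0.13 for LAV-BPIFB4 and -0.06 for WT-BPIFB4 against the empty vector. Of the Polycomb target list, 31 of 41 genes had a named probe and 26 were measured, namely CDKN2A, CDKN2B and HOX genes. Its medians were 0.0047 for LAV-BPIFB4 and 0.04 for WT-BPIFB4, and 1 gene was called, with LAV-BPIFB4. That was CDKN2A, which encodes a cyclin-dependent kinase inhibitor and, from another reading frame, the ARF protein. It read 9.24, 9.18 and 9.30 with LAV-BPIFB4, 8.63, 9.14 and 9.19 with WT-BPIFB4, and 8.0, 8.59 and 8.60 with the empty vector, and all 6 BPIFB4 arrays lay above the 3 empty vector arrays. The rise with LAV-BPIFB4 was 0.85 ± 0.18 (1.80-fold, limma adjusted p = 0.0078), and the second CDKN2A probe was called at 0.55. With WT-BPIFB4 the difference was 0.59 ± 0.18 and was not called (limma adjusted p = 0.113). The LAV-BPIFB4 call held without any one array, and was lost with median scaling (limma adjusted p = 0.081) and without the intensity trend (adjusted p = 0.075). Whether CDKN2A and the lower BMI1 and PHC1 signals are related was not tested.

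**Figure D4:**
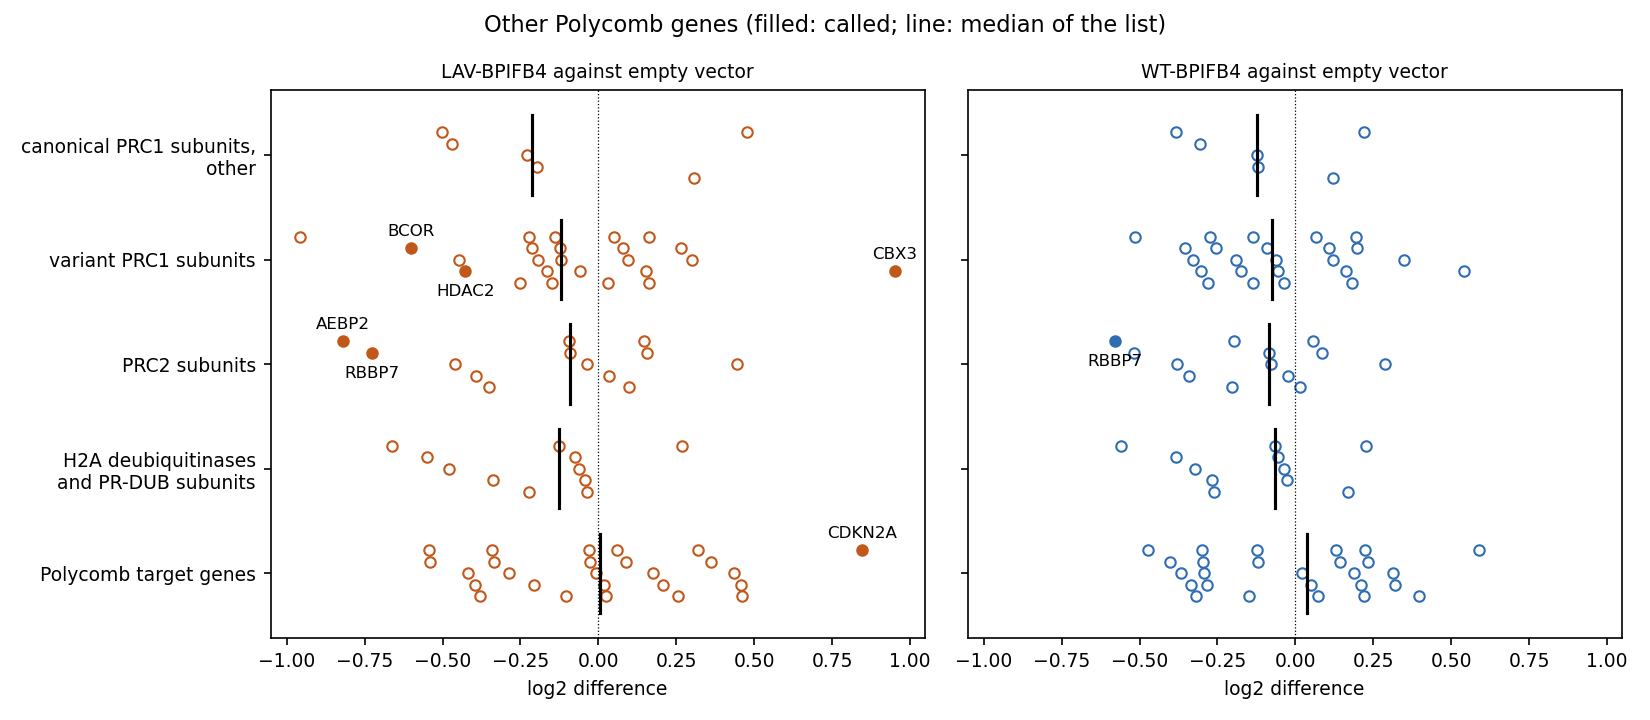
Log2 difference (horizontal axis) of each measured gene of the 5 Polycomb lists for LAV-BPIFB4 against the empty vector and WT-BPIFB4 against the empty vector. Each point is a gene, filled points are called and named, and the vertical line is the median of the list. The 6 called genes with LAV-BPIFB4 lie in 3 lists, and RBBP7 is the called gene with WT-BPIFB4.

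The 5 genes whose profile over the 9 arrays was nearest to that of PHC1 were ATF3, ATXN7L2, LOX, HGS and DEPTOR. Nearness was the root mean square distance between log2 intensities, each gene centred on its own mean, and it was 0.40 for ATF3 and ATXN7L2, 0.42 for LOX and 0.45 for HGS and DEPTOR, where PHC1 itself deviated from its mean by 0.84. ATF3, a stress-induced transcription factor, read 9.40, 9.78 and 9.75 with LAV-BPIFB4, 9.50, 9.87 and 9.58 with WT-BPIFB4, and 10.55, 10.97 and 10.60 with the empty vector. LOX, lysyl oxidase, read 5.12, 5.89 and 5.85 with LAV-BPIFB4, 5.03, 6.45 and 5.64 with WT-BPIFB4, and 6.59, 7.28 and 5.85 with the empty vector. As with PHC1, WT-BPIFB4 replicate 1 was the lowest array for LOX, and for ATF3 and LOX empty vector replicate 2 was the highest. LOX was detected on 7 of the 9 arrays. Unlike PHC1, its groups overlapped, with LAV-BPIFB4 replicate 2 at 5.89 above empty vector replicate 3 at 5.85. The differences from the empty vector of these 5 genes ran from -1.71 to -0.95 for LAV-BPIFB4 and from -1.06 to -0.74 for WT-BPIFB4. They were chosen for this likeness, so it is a description over 9 arrays.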

How the data were processed

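RNA of 9 HEK293T samples was hybridised to Illumina bead arrays. The deposited non-normalized table holds, per the file headers, intensities and detection p-values of the probes on every array; it was made with BeadStudio, whose version is not given, per the submitters' processing notes. A deposited value table holds intensities of a further normalization, which is not given in the sources used here.

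Signals were corrected and quantile-normalised with neqc (limma 3.58.1, R 4.3.3; background estimated from the detection p-values, offset 16) and put on the log2 scale. The filter (detection under 0.05 on 3 or more arrays) left 20914 of 47310 probes. Symbols came from the platform's gene table, brought up to date by gene identifier. A model of the 3 group means was fitted across all 9 arrays (lmFit, eBayes with intensity trend), with Benjamini-Hochberg adjustment over all kept probes. A gene in a list is its kept probe with the highest mean. Only the model fit was tested on simulated data, with values drawn independently for each array. Background correction, normalization and the filter were not part of that test. Precision is limited by the number of arrays. The labels do not say whether triplicates are separate cultures, so the spread behind each p-value may be technical.

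Named were all members, up to 4 called genes of each list in each direction, and the 5 genes nearest to PHC1. The members and lists were chosen with earlier results of these data known. The 19 alternatives covered background, offset, scaling, value table, filter, variance model, array weights, samples in the fit, a replicate block and leaving out each array. Replicate numbers are shared between groups. The correlation of deviations between same-numbered arrays ran from 0.0011 to 0.22, and was over 0.1 in 4 of 9 pairs. The numbers were not taken as pairs in the main fit, but this check does not settle whether they are pairs.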

Additional observations from a re-analysis of the deposited data

How the results depend on the processing

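PHC1 kept its sign against the empty vector under every alternative that kept its probe, 18 for each form of BPIFB4. The LAV-BPIFB4 difference was -0.73 without background correction, -1.18 with an offset of 50 and -0.62 with the value table, and -1.92 to -1.43 leaving out one array. For LAV-BPIFB4 the value table is not another processing of the same arrays, since its LAV-BPIFB4 columns matched none of the 9. The WT-BPIFB4 difference was -0.59 without background correction, -0.64 with the value table, and -1.54 to -0.95 leaving out one array. The LAV-BPIFB4 against WT-BPIFB4 difference was -0.78 to -0.19 leaving out one array and 0.02 with the value table. The 2 PRC1 probes called for LAV-BPIFB4 became 1 with median scaling, the value table, no probe filter, detection on all 9 arrays (which leaves PHC1 out) or no intensity trend, 3 with array weights, which added RING1 as higher, and 1 to 2 leaving out one array. The 1 called for WT-BPIFB4 became 0 with no filter, the stricter filter, no trend or 2 groups in the fit, 3 with array weights, and 0 to 2 leaving out one array, 2 being without WT-BPIFB4 replicate 1. Those 2 were BMI1 and the second PCGF6 probe, both lower, and PHC1 was not called there. With array weights the 3 were PHC1, BMI1 and that PCGF6 probe. Of the other Polycomb genes, the 6 called for LAV-BPIFB4 became 1 with median scaling, 3 with the value table, 0 with no trend, 15 with array weights, 13 with 2 groups in the fit and 4 to 13 leaving out one array, 13 being without WT-BPIFB4 replicate 1. The 1 called for WT-BPIFB4 became 0 without background correction, with an offset of 50, median scaling, the value table, no filter, the stricter filter, no trend or 2 groups, 6 with array weights, and 0 to 9 leaving out one array, 9 being without WT-BPIFB4 replicate 1. With the replicate number as a block, 2 PRC1 probes were called for each form against the empty vector, and 14 and 2 other Polycomb genes for LAV-BPIFB4 and WT-BPIFB4. Over all kept probes 13.1% and 3.96% were called with this block, beside 7.72% and 1.07% in the main fit. With array weights the shares were 14.2% and 5.36%, and without WT-BPIFB4 replicate 1 they were 12.2% and 7.61%. With 2 groups in the fit they were 11.4% and 0.416%. Under median scaling they were 1.16% and 0.249%, and without the intensity trend 1% and 0.148%. Larger and smaller counts in these settings went with shifts over all probes, so nothing specific to Polycomb genes is read from them. The pairing check does not settle whether the replicate numbers are pairs. Between LAV-BPIFB4 and WT-BPIFB4 no PRC1 probe and no other Polycomb gene was called under any of the 19 alternatives. Median scaling moved the median of all kept probes by 0.13 in that comparison. Where no other cause is named, the cause was not tested. PHC1 lies close to background on the BPIFB4 arrays, which limits the size that can be given for it.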
